A study of Mus musculus with 12 samples.

Results

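The comparison asked whether knocking out Atg5 altered the transcriptional response of microglial cells to interferon gamma (IFNγ). It is a difference of differences: for each gene, the log2 change with IFNγ in Atg5 knockout (KO) cells minus the log2 change in wild type (WT) cells. A positive value means that the change was more positive in KO cells, which covers both a larger rise and a smaller fall. Of 46078 genes in the table, 16924 had a read, and 10981 reached a log2 level of 3 in 3 or more of the 12 libraries; these 10981 genes were compared.

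The cells were BV2, an immortalised mouse microglial line. WT cells and Atg5 KO cells were given medium alone or 1 U/mL IFNγ for 24 h, and each of the 4 groups had 3 independently made replicates, A, B and C. The number of KO clones behind these replicates is not given in the labels, so genotype and clone cannot be told apart. RNA came from cytosolic lysates cleared of nuclei, was enriched for poly-A and was primed with barcoded oligo-dT, so the reads count the 3′ ends of transcripts. Levels below are log2 of the normalised read count plus 1, and every change or difference is on that scale, which understates changes of genes near 0.

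IFNγ binds a receptor made of Ifngr1 and Ifngr2, and the Janus kinases on it activate STAT proteins, which then switch on further regulators such as Irf1. The genes that follow include guanylate-binding proteins and immunity-related GTPases, which attack vacuoles holding microbes, the genes of antigen presentation, and a set shared with type I interferon that acts against viruses. Atg5 is part of the complex that attaches LC3 and its relatives to membranes, a step of autophagosome formation that also helps place the immunity-related GTPases in macrophages.

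Reads per library ran from 3329849 to 7330435. All 10 microglial and macrophage markers looked for, among them Csf1r, Aif1 and Trem2, were measured, and none had an unadjusted p under 0.05 for the difference; the defining markers Cd3e of T cells, Epcam of epithelium and Col1a1 of fibroblasts had no read. Of the endothelial markers Kdr and Vwf were measured, and the summed endothelial level was 7.31 to 7.54 in KO medium and 8.38 to 9.26 in WT medium; its part in the results was not tested. Library C of IFNγ-treated WT cells stood apart: on the axis of largest variation, which parted the treatments, it lay at 22.2 against 55.3 and 56.3 for A and B. The KO library C with IFNγ lay at 29.1 against 41.2 and 44.0. Differences that change sign or move by over 1.5 times without WT IFNγ C are therefore also given without it. KO IFNγ C, which was low too, stays in, so this tends to lower the differences of genes that IFNγ raised.

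Atg5 itself read 8.57, 8.51 and 8.35 in WT medium and 8.92, 8.86 and 8.96 in WT IFNγ. In KO cells it read 8.68, 9.02 and 8.84 in medium and 8.83, 8.74 and 8.77 with IFNγ. The KO libraries lay above the WT libraries in medium (KO minus WT 0.37, adjusted p = 0.595, limma) and below them with IFNγ (-0.13, adjusted p = 0.817), and neither gap passed the test. Reads from the 3′ end do not show whether the coding part is disrupted, so these levels do not check the labels.

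IFNγ changed 730 genes in WT cells (6.65%) and 808 in KO cells (7.36%). In WT cells 497 rose (4.53%) and 233 fell (2.12%), and in KO cells 513 rose (4.67%) and 295 fell (2.69%). KO and WT cells differed at 47 genes in medium (0.428%; 13 higher in KO, 0.118%, and 34 lower, 0.31%) and at 54 with IFNγ (0.492%; 23 higher, 0.209%, and 31 lower, 0.282%). The difference between the responses passed the threshold for no gene: limma called 0 of 10981 (0%), with a smallest adjusted p of 0.106. At an unadjusted p under 0.05 there were 792 genes (7.21%), of which 475 had a positive difference (4.33%) and 317 a negative one (2.89%). Limma voom on the reads recovered from the values also called 0, with 765 genes at an unadjusted p under 0.05. In bulk libraries such as these, fewer cells making an RNA and less of it per cell cannot be told apart. No gene below is therefore called for the difference, and each is given as a value that did not pass.

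Across the 10981 genes the WT and KO changes had a Pearson correlation of 0.72 and a Spearman correlation of 0.42. These are over genes, which are not independent, and the changes share no library. The median difference was -0.0003, with the 5th percentile at -0.90 and the 95th at 1.06. The typical standard error was 0.38 (median), and 0.27 to 0.93 from the 10th to the 90th percentile. The 95% interval of the difference lay wholly between -1 and 1 for 3975 genes (36.2%), and wholly between -0.5 and 0.5 for 6 genes. For most genes these libraries thus could not show that the responses were alike to within a doubling.

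**Figure D1:**
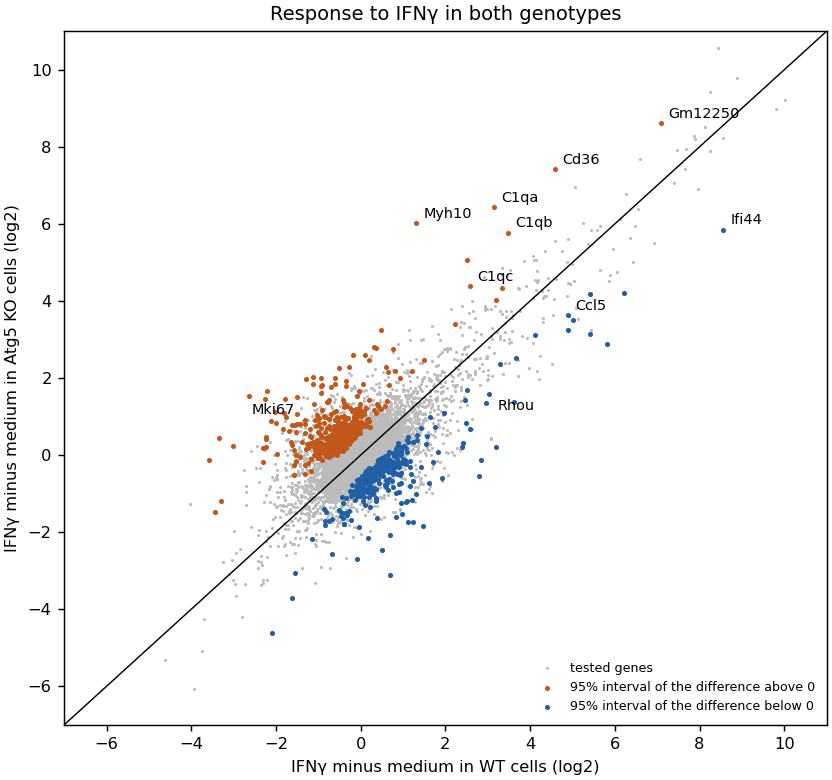
Each point is 1 of 10981 genes, with its log2 change with IFNγ in WT cells on the x axis and in Atg5 KO cells on the y axis; the line marks equal change. Colour marks the 475 genes above and the 317 below the line whose 95% interval of the difference excluded 0 without adjustment; Myh10, Cd36 and the C1q genes lie above the line and Ifi44, Ccl5 and Rhou below it.

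The 3 subunit genes of C1q, the recognition molecule of the classical complement pathway, which microglia make in quantity, shared a pattern: all were lower in KO cells than in WT cells in medium, rose in both genotypes, and overlapped between genotypes with IFNγ. C1qa, C1qc and C1qb lie side by side on chromosome 4 of GRCm38, all on the minus strand, C1qa at chr4:136895917-136898803, C1qc at chr4:136889804-136893065 and C1qb at chr4:136880129-136886187. The promoters of C1qb and C1qc are shown because these neighbours moved alike. Each runs from 250 bases before to 50 after the transcription start in RefSeq (GRCm38.p6, minus strand), C1qb at chr4:136886151-136886450 and C1qc at chr4:136892865-136893164. Capitals mark AGGAAGT on either strand, here read as its complement, a core of the Ets type that factors such as Spi1 (PU.1) recognise.
C1qb: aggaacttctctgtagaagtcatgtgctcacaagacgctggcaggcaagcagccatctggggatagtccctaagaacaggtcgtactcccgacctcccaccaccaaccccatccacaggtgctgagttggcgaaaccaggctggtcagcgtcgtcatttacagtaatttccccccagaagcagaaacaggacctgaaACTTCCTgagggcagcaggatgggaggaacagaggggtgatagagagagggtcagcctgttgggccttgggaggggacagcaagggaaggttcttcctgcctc
C1qc: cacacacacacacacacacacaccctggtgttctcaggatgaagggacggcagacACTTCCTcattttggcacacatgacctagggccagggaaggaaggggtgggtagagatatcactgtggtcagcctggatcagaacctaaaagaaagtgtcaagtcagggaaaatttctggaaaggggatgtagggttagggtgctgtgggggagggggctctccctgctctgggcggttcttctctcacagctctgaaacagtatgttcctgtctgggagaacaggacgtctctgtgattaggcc
The match begins 53 bases before the start of C1qb and 195 before that of C1qc. These letters were picked after reading the sequences, and 9.35% of 32851 promoters of the same length hold them. Neither promoter holds TTCNNNGAA, the letters of the gamma-activated site (8.3% of promoters), or the letters of the interferon-stimulated response element , a pair of GAAA repeats spaced by 2 bases (3.44%), both strands searched.

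C1qb read 7.50, 7.68 and 7.94 in WT medium and 11.60, 11.63 and 10.33 in WT IFNγ. In KO cells it read 5.13, 5.12 and 5.13 in medium and 11.14, 11.31 and 10.23 with IFNγ. The KO medium libraries lay below every other library, while the IFNγ libraries of the genotypes overlapped. C1qb rose by 3.48 in WT cells (adjusted p = 1.62e-07) and by 5.77 in KO cells (adjusted p = 3.45e-10), which gave a difference of 2.28 ± 0.43 (SE; adjusted p = 0.106, unadjusted p = 3.56e-05, limma). KO minus WT was -2.58 in medium (adjusted p = 0.000107) and -0.29 with IFNγ (adjusted p = 0.75).

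C1qa followed the same order at lower counts. It read 4.93, 4.73 and 4.69 in WT medium, 8.27, 8.47 and 7.05 in WT IFNγ, 1.39, 3.35 and 0 in KO medium and 8.27, 8.37 and 7.38 in KO IFNγ. Again the medium libraries parted by genotype and the IFNγ libraries did not; the difference was 3.29 ± 0.82 (SE; adjusted p = 0.379), and KO minus WT in medium was -3.21 (adjusted p = 0.0104, up to 0.0722 and no longer called when any one of the 3 WT medium libraries was left out). C1qc read 8.19, 8.37 and 8.24 in WT medium, 11.39, 11.20 and 9.92 in WT IFNγ, 6.67, 5.75 and 6.11 in KO medium and 10.71, 10.98 and 10.01 in KO IFNγ. Its difference was 1.82 ± 0.45 (SE; adjusted p = 0.379), with KO minus WT at -2.09 in medium (adjusted p = 0.00227) and -0.28 with IFNγ (adjusted p = 0.785). Without WT IFNγ C the differences of C1qa, C1qb and C1qc were 2.85, 1.86 and 1.36. Without both IFNγ libraries of letter C that of C1qb was 2.19. The gap in medium uses the same KO and WT medium libraries as the difference and is no independent support for it.

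Myh10, which encodes a non-muscle myosin II heavy chain, showed the largest difference among the leading genes. It had 64, 46 and 41 reads in WT medium, 104, 149 and 45 in WT IFNγ, 0 in all 3 KO medium libraries, and 102, 114 and 26 in KO IFNγ. On the log2 scale this was 5.63, 5.24 and 5.33, then 7.04, 7.30 and 5.78, then 0, 0 and 0, then 6.93, 6.72 and 4.40. Only the KO medium libraries lacked it, and the IFNγ libraries of the genotypes overlapped. In WT cells the normalised reads with IFNγ were 2.77-fold those in medium (95% counting interval 2.27 to 3.39). That interval leaves out the spread between replicates, and limma did not call the WT change. In KO cells the rise was at least 71.7-fold (adjusted p = 4.35e-07, limma), with the KO medium group set to a floor of 3 reads. The difference was 4.71 ± 0.79 (SE; unadjusted p = 9.98e-06, adjusted p = 0.106, limma), and KO minus WT in medium was -5.40 (adjusted p = 1.99e-05).

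Cd36, a scavenger receptor that takes up oxidised lipids and fatty acids, was also scarce in KO medium. Cd36 read 3.22, 1.76 and 2.53 in WT medium and 7.59, 7.39 and 6.26 in WT IFNγ. It read 0, 0 and 1.64 in KO medium and 8.12, 7.95 and 7.81 in KO IFNγ. The genotypes did not overlap in either treatment, KO being lower in medium and higher with IFNγ, but neither gap passed the test (adjusted p = 0.143 and 0.517). IFNγ raised Cd36 27.7-fold in WT cells (95% counting interval 17.5 to 46.5) and 352-fold in KO cells (97.1 to 2910, from 2 reads in medium), a log2 difference of 2.84 ± 0.73 (SE; adjusted p = 0.379). Usp18, which removes Isg15 from proteins and restrains type I interferon signalling, was lower in KO medium by 1.96 (adjusted p = 0.00731, and 0.067 without WT medium C), and its difference was 1.01 ± 0.48 (SE; adjusted p = 0.69).

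**Figure D2:**
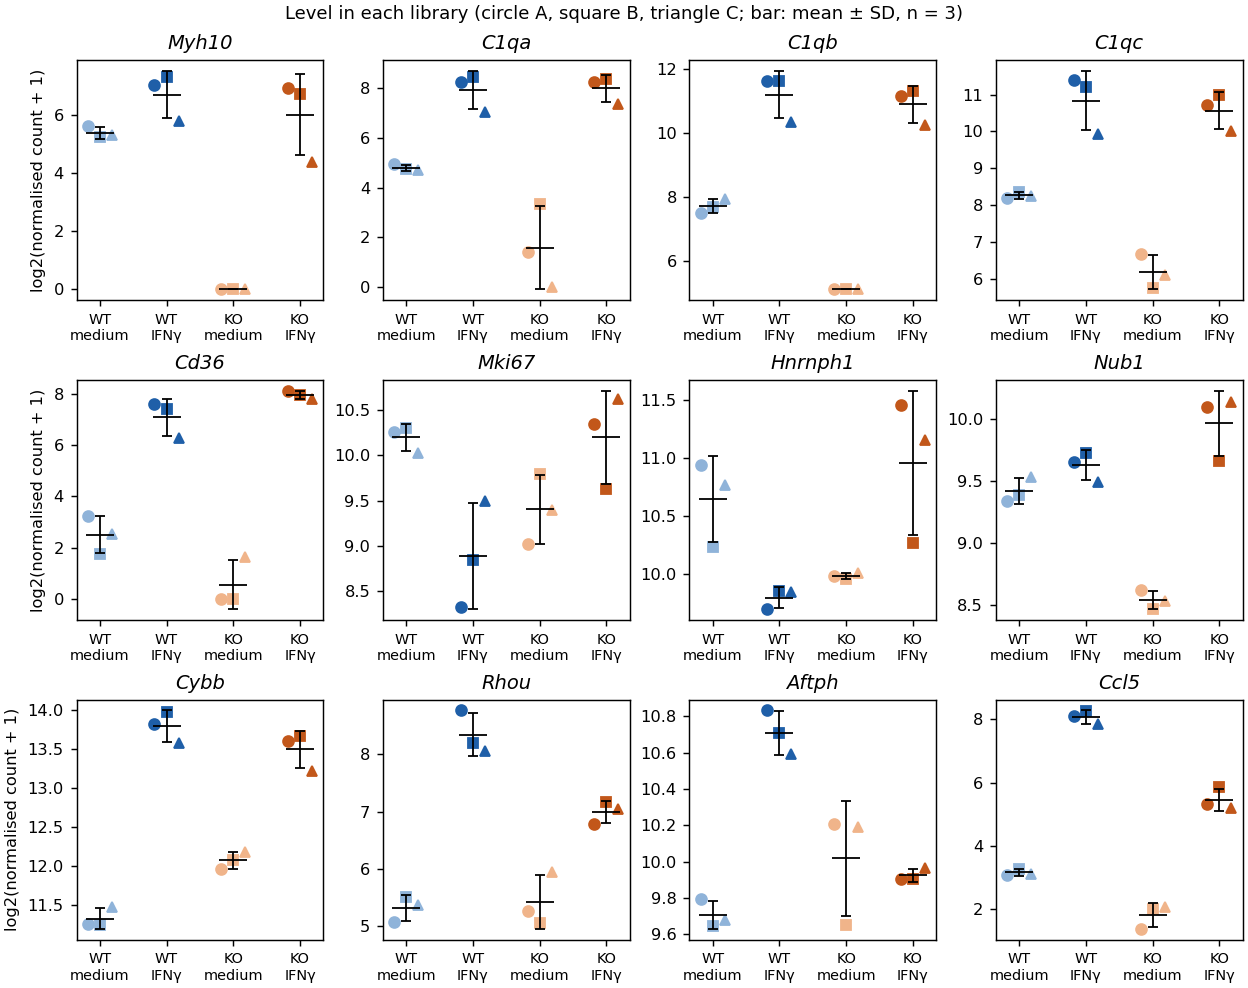
Levels of 12 genes, log2(normalised count + 1), in each of the 12 libraries, with group mean ± SD (n = 3); y axes do not start at 0. Myh10, the C1q genes, Cd36 and Nub1 part from the other groups in KO medium, Mki67 and Hnrnph1 turn in opposite senses in the genotypes, and Cybb, Rhou and Ccl5 climb further in WT cells.

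Mki67, the proliferation marker Ki-67, took opposite signs. It read 10.26, 10.31 and 10.03 in WT medium and 8.33, 8.84 and 9.49 in WT IFNγ. It read 9.03, 9.79 and 9.40 in KO medium and 10.34, 9.63 and 10.62 in KO IFNγ. In WT cells the treatments did not overlap and Mki67 fell by 1.31 (adjusted p = 0.00519); in KO cells they overlapped and the change was 0.79 (adjusted p = 0.0957). The difference was 2.10 ± 0.39 (SE; adjusted p = 0.106), and with IFNγ Mki67 was higher in KO cells by 1.31 (adjusted p = 0.0384). Without WT IFNγ C the difference was 2.40 and its adjusted p was 0.031, so Mki67 is called when that library is left out. The gap with IFNγ lost its call when any one of 7 single libraries was left out (WT medium A, B or C, WT IFNγ A or B, KO IFNγ A or C), with an adjusted p of up to 0.185.

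Kif11, the kinesin that separates spindle poles, had a difference of 1.14 ± 0.26 (SE; adjusted p = 0.294): it fell by 1.01 in WT cells (adjusted p = 0.00141), and its KO change was 0.13 (adjusted p = 0.767). Cell cycle genes did not follow as a list. Of 30 members tested, 15 had a positive difference, 3 had an unadjusted p under 0.05 (Mki67, Kif11 and Top2a at 0.61, all positive, against 4.33% of all genes), and the list median was -0.004 beside -0.0003 for all genes. For 20 of the 30 the 95% interval lay between -1 and 1, against 36.2% of all genes. The list's mean level in WT medium A was 9.56, against a median of 7.11 for tested genes. Whether level accounts for the share was not tested.

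Hnrnph1, a splicing regulator, read 10.93, 10.23 and 10.77 in WT medium and 9.70, 9.85 and 9.84 in WT IFNγ. It read 9.98, 9.95 and 10.01 in KO medium and 11.45, 10.26 and 11.15 in KO IFNγ. The treatments did not overlap in either genotype: Hnrnph1 fell by 0.85 in WT cells (adjusted p = 0.0393) and rose by 0.98 in KO cells (adjusted p = 0.0157), which gave a difference of 1.82 ± 0.34 (SE; adjusted p = 0.106). The WT call was lost without any one of 5 single libraries (WT medium A or C, WT IFNγ A or B, KO medium B; adjusted p up to 0.169), and the KO call without any one of 4 (KO medium A or B, KO IFNγ A or C; up to 0.115). Medium and IFNγ libraries were apart in opposite senses in this way for 47 genes (0.428% of those tested). Cstf2, a subunit of a complex that cleaves pre-mRNA before polyadenylation, was another, with a difference of 1.14 ± 0.26 (SE; adjusted p = 0.294).

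Nub1, which directs the ubiquitin-like protein Nedd8 and its conjugates to degradation, read 9.34, 9.39 and 9.53 in WT medium and 9.66, 9.73 and 9.49 in WT IFNγ. It read 8.62, 8.47 and 8.54 in KO medium and 10.10, 9.66 and 10.13 in KO IFNγ. Only the KO libraries parted by treatment: Nub1 rose by 1.42 in KO cells (adjusted p = 1.61e-05), the WT change was 0.21 (adjusted p = 0.561), and the difference was 1.21 ± 0.25 (SE; adjusted p = 0.177). In medium it was lower in KO cells by 0.88 (adjusted p = 0.0241), a call lost without any one of the 6 medium libraries (up to 0.15). Ndufa12, a subunit of respiratory complex I, rose by 0.99 in KO cells (adjusted p = 0.00691) and changed by -0.56 in WT cells (adjusted p = 0.14), a difference of 1.55 ± 0.31 (SE; adjusted p = 0.162). The respiratory chain list, which does not hold Ndufa12, had a median difference of -0.08 over 23 genes. The remaining leading genes with a positive difference were the golgin Golga5 at 1.88, the centrosomal Cep350 at 1.51, 1110037F02Rik at 1.32 and Zfp330 at 1.099, each with an adjusted p of 0.177 or more.

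The genotypes' changes had opposite signs in 403 of the 475 genes with a positive difference at an unadjusted p under 0.05, in 216 of the 317 with a negative one, and in 36.6% of all genes tested; choosing genes by their difference favours opposite signs. Within the positive set the WT 95% interval lay below 0 and the KO interval held 0 in 172, the WT interval held 0 and the KO interval lay above it in 166, the WT interval lay below and the KO interval above 0 in 22, and both held 0 in 94. The gap between the genotypes was larger in medium than with IFNγ in 175 of the 475 and in 143 of the 317 genes with a negative difference. By median the positive set also held longer genes, though none of its members passed after adjustment and length was not tested. Their median span was 32910 bp with 12 exons in the transcript richest in exons, against 18421 bp and 7 exons in the negative set and 21847 bp and 9 exons over all tested genes (GENCODE M21).

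RNAs held in the nucleus were also looked at, since the lysis was meant to leave nuclei behind. The mean level of 5 such RNAs was 9.35, 9.28 and 9.19 in KO IFNγ, 8.86, 8.85 and 8.88 in WT IFNγ, and 8.52 to 8.86 in the 6 medium libraries. The KO IFNγ libraries were above all others. Malat1 had a difference of 0.88 ± 0.35 (SE; adjusted p = 0.628) and Kcnq1ot1 one of 0.92 ± 0.39 (SE; adjusted p = 0.656). Kcnq1ot1 was higher in KO than in WT cells with IFNγ by 1.35 (adjusted p = 0.0308), a call lost without WT medium B, WT IFNγ A or B, or KO IFNγ A or C (up to 0.129). The list's median difference was 0.17, and ran from 0.007 without all 4 libraries of letter C to 0.51 without WT medium B. Malat1 and Kcnq1ot1 are themselves members of the positive set. The list's part in the positive differences was not tested.

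Among leading genes with a negative difference, Cybb, the catalytic subunit of the phagocyte NADPH oxidase, rose in both genotypes but less in KO cells. Its RefSeq promoter (chrX:9469275-9469574, GRCm38.p6, minus strand) is shown because it was the only promoter among the leading genes found to hold the letters of the interferon-stimulated response element; capitals mark the 3 matches on either strand.
Cybb: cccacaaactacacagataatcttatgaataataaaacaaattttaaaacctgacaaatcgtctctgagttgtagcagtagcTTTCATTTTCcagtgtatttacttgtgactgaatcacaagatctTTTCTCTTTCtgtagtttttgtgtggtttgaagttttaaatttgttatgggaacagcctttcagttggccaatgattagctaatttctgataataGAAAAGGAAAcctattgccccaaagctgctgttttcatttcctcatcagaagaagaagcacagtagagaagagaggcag
Cybb read 11.26, 11.24 and 11.48 in WT medium and 13.83, 13.98 and 13.58 in WT IFNγ. It read 11.95, 12.08 and 12.18 in KO medium and 13.60, 13.67 and 13.22 in KO IFNγ. The treatments were apart in both genotypes, and in medium the KO libraries lay above the WT libraries. It rose by 2.47 in WT cells (adjusted p = 1.9e-08) and by 1.43 in KO cells (adjusted p = 2.36e-05), which gave a difference of -1.05 ± 0.26 (SE; adjusted p = 0.379). Its partner subunit Cyba rose in WT cells by 0.87 (adjusted p = 0.00297), with a KO change of 0.31 (adjusted p = 0.353) and a difference of -0.56 ± 0.25 (SE; adjusted p = 0.659).

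Rhou, a small GTPase, read 5.07, 5.51 and 5.36 in WT medium and 8.77, 8.19 and 8.07 in WT IFNγ. It read 5.26, 5.05 and 5.94 in KO medium and 6.79, 7.16 and 7.04 in KO IFNγ. The genotypes overlapped in medium and were apart with IFNγ. Rhou rose by 3.03 in WT cells (adjusted p = 4.66e-07) and by 1.58 in KO cells (adjusted p = 0.00112), with a difference of -1.45 ± 0.40 (SE; adjusted p = 0.439) and a KO minus WT gap with IFNγ of -1.35 (adjusted p = 0.0384). That gap lost its call without WT medium B or C, WT IFNγ A or B, or any one KO IFNγ library (up to 0.19). Aftph, a protein of clathrin-dependent trafficking, read 9.79, 9.65 and 9.68 in WT medium, 10.83, 10.71 and 10.59 in WT IFNγ, 10.21, 9.65 and 10.19 in KO medium and 9.90, 9.90 and 9.97 in KO IFNγ. It rose by 1.00 in WT cells (adjusted p = 0.000882), where the treatments were apart; in KO cells they overlapped, the change was -0.09 (adjusted p = 0.842), and the difference was -1.10 ± 0.25 (SE; adjusted p = 0.294). The other 9 were Snora73b at -1.67, Atg101 at -1.24, Wdr37 at -1.24, Tmem184b at -1.20, Dcaf6 at -1.16, the cohesin loader Mau2 at -1.12, the endosomal ferrireductase Steap3 at -0.95, the ubiquitin-conjugating enzyme Ube2b at -0.90 and Irf2bpl at -0.89. Their adjusted p ran from 0.379 to 0.439.

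Of 12 receptor, Janus kinase and STAT genes, 4 rose in each genotype, against 4.53% of all genes in WT and 4.67% in KO cells. None had an unadjusted p under 0.05 for the difference, whose median was -0.12. The members of lowest p were Tyk2, a Janus kinase, at -0.78 (95% interval -1.68 to 0.12) and Stat2, part of the factor that carries type I interferon signals, at -0.89 (-1.98 to 0.20). The receptor genes Ifngr1 and Ifngr2 were at 0.20 (-0.82 to 1.21) and 0.07 (-0.89 to 1.03), and at 0.52 and -0.11 without WT IFNγ C. The regulator Irf1 was at 0.47 (-0.86 to 1.81), and at -0.26 without it. Among 10 feedback genes, Ptpn2, a phosphatase that acts on Janus kinases and STATs, rose by 0.87 in KO cells (adjusted p = 0.0113, and 0.0887 without KO IFNγ A) with a difference of 0.67 ± 0.29 (SE; adjusted p = 0.659). Socs1, the main brake on IFNγ signalling, had a difference of 1.70 (95% interval -0.56 to 3.95), which was 0.53 without WT IFNγ C.

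The median differences of the GTPase families and of the class II genes changed sign without WT IFNγ C. All 7 guanylate-binding proteins tested had a positive difference, with a median of 0.62, and without that library the median was -0.05. It was -0.06 without all 4 libraries of letter C, and stayed positive without only the IFNγ libraries of letter C from both genotypes. The mean level of the 7 genes was 8.24, 8.43 and 5.67 in WT IFNγ and 8.56, 8.25 and 7.62 in KO IFNγ. Library C was thus lowest in each genotype and far lowest in WT. Gbp2 rose by 8.45 in WT cells and 10.56 in KO cells (difference 2.11, 95% interval -0.40 to 4.61, and 1.30 without WT IFNγ C). The 12 immunity-related GTPases rose in both genotypes, against 4.53% of all genes in WT and 4.67% in KO cells. Their median difference was 0.43, and -0.24 without WT IFNγ C. The 8 class II genes had a median of 0.44 that was -1.05 without it, and 1 member, Cd74, the invariant chain, was at -1.14 ± 0.37 (SE; adjusted p = 0.558). The 18 class I and antigen processing genes had a median of -0.18, and -0.35 without WT IFNγ C, negative under all 25 alternatives. These alternatives reuse the same 12 libraries, and some, such as the fit without a trend, cannot move a median. They are not 25 independent checks. Of the class I and processing genes 17 rose in WT cells and all 18 in KO cells, against the same shares of all genes. Close paralogs in these families can share reads.

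**Figure D3:**
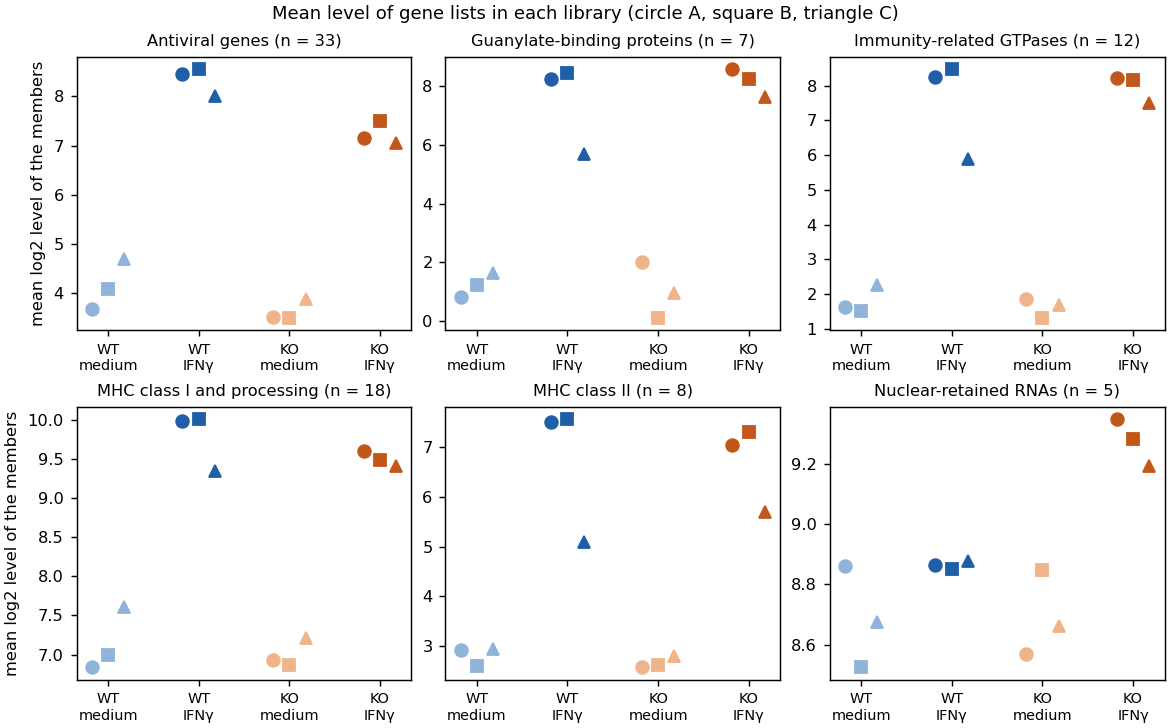
Mean log2 level of the tested members of 6 gene lists in each library; y axes do not start at 0. WT IFNγ C is low for the GTPase and MHC lists (5.67 for guanylate-binding proteins), the antiviral list is lower in all 3 KO IFNγ libraries than in all 3 WT IFNγ libraries, and the nuclear-retained list is highest in KO IFNγ.

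With all 12 libraries the antiviral genes had the most negative median of the lists; without WT IFNγ C the class II list was lower. All 33 members rose with IFNγ in WT cells and 30 in KO cells, against 4.53% and 4.67% of all genes. Of the 33, 26 had a negative difference, while 5490 of all 10981 genes had a positive one. The list's median was -0.50 beside -0.0003 for all genes. Their mean level was 8.45, 8.55 and 8.01 in WT IFNγ and 7.16, 7.51 and 7.05 in KO IFNγ, without overlap. In medium it was 3.68, 4.09 and 4.69 in WT and 3.51, 3.51 and 3.89 in KO cells, with overlap. The 4 members with an unadjusted p under 0.05, all negative (2.89% of all genes), were Ifi44 at -2.70, Isg20 at -1.51, Ifit2 at -0.999 and Bst2 at -0.82, with adjusted p from 0.592 to 0.69. The median was -0.74 without WT IFNγ C and -0.30 without WT medium A. It was negative under all 25 alternatives, which share libraries and are not independent checks.

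Ifi44 had 1, 0 and 0 reads in WT medium and 8, 0 and 0 in KO medium, and its fold with IFNγ was 1669 in WT cells (95% counting interval 299 to 65991) and 50.8 in KO cells (25.5 to 118). All its KO medium reads came from library A, without which the difference was -1.43. Rsad2, known as viperin, which makes an antiviral nucleotide, read 7.10, 7.13 and 8.35 in WT medium, 12.91, 13.23 and 13.36 in WT IFNγ, 6.18, 6.17 and 7.19 in KO medium and 11.17, 11.49 and 11.28 in KO IFNγ. Its genotypes were apart with IFNγ, KO being lower by 1.85 (adjusted p = 0.00426), and its difference was -0.84 ± 0.42 (SE; adjusted p = 0.702). Isg15, the ubiquitin-like interferon product, had a difference of -1.31 (95% interval -3.10 to 0.48). It had 10, 2 and 1 reads in KO medium, and its difference was -0.34 without KO medium A. Parp14 had a difference of 1.18 (-0.14 to 2.51).

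**Figure D4:**
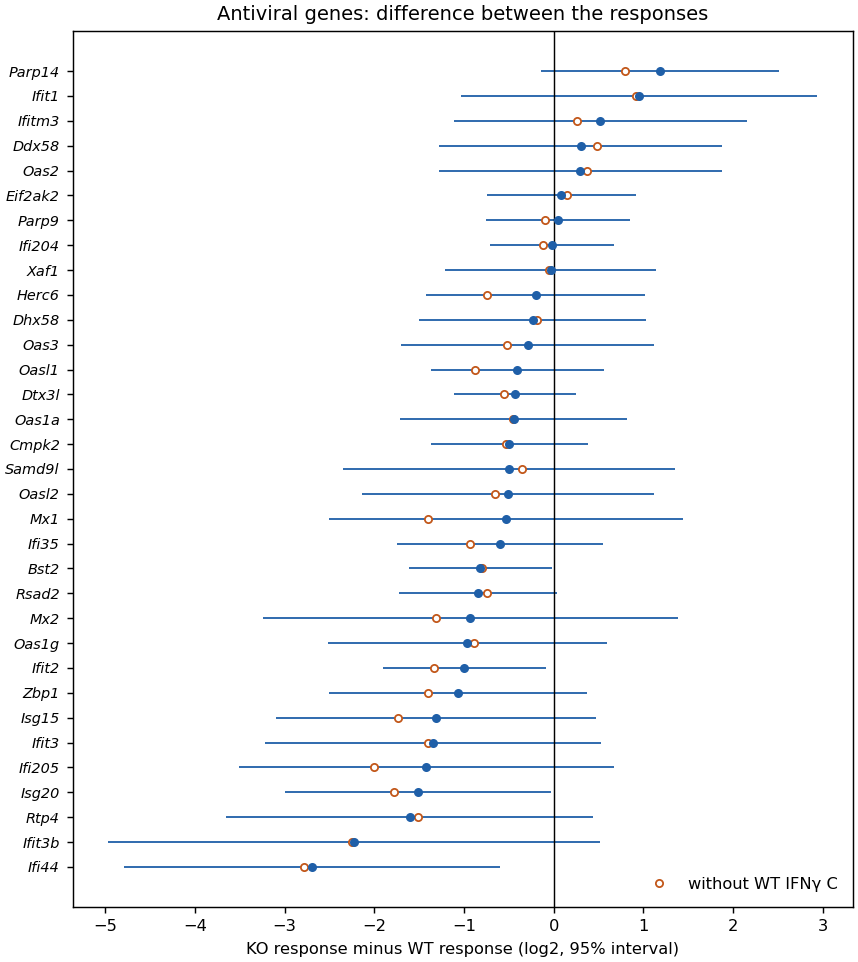
Difference between the KO and the WT response (log2) for each of the 33 antiviral genes tested, filled points with 95% intervals from all 12 libraries and open points without WT IFNγ C. The points lie below 0 for 26 genes, and 4 intervals, those of Ifi44, Isg20, Ifit2 and Bst2, exclude 0 without adjustment.

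Among the ligands, the chemokine Ccl5 read 3.10, 3.29 and 3.11 in WT medium, 8.10, 8.26 and 7.84 in WT IFNγ, 1.39, 2.02 and 2.07 in KO medium and 5.33, 5.85 and 5.19 in KO IFNγ. KO libraries lay below WT libraries in both treatments, with a gap of -2.61 with IFNγ (adjusted p = 0.00173) and -1.34 in medium (adjusted p = 0.2), and the difference was -1.26 ± 0.54 (SE; adjusted p = 0.656). Cxcl9 rose by 10.01 and 9.22 and Cxcl10 by 4.87 and 5.01 in WT and KO cells, differences of -0.79 (95% interval -2.75 to 1.17) and 0.13 (-1.83 to 2.09). Without WT IFNγ C these were -1.64 and -0.77, so that the sign for Cxcl10 rests on that library. Ccl9 fell by 1.54 in WT cells, a call lost without any one WT medium library or WT IFNγ A or B (adjusted p up to 0.159), and by 3.07 in KO cells, which gave a difference of -1.53 ± 0.58 (SE; adjusted p = 0.611). Tnf had a difference of 0.48 (95% interval -0.57 to 1.53), and 0.061 without WT IFNγ C; its receptor Tnfrsf1a had one of -0.28 (-0.88 to 0.33), and -0.46 without it.

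Over 26 genes of cell death the median difference was -0.14, with 1 positive and 3 negative members at an unadjusted p under 0.05 (4.33% and 2.89% of all genes), and over 12 antimicrobial effectors it was -0.22. Bak1, which permeabilises mitochondria, rose in WT cells by 1.23 (adjusted p = 0.000359), with a KO change of 0.33 (adjusted p = 0.393) and a difference of -0.90 ± 0.28 (SE; adjusted p = 0.54). Cflar, the inhibitor of Casp8, rose in WT cells by 1.11 (adjusted p = 0.00115), with a KO change of 0.35 and a difference of -0.76 ± 0.28 (SE; adjusted p = 0.592). Casp8 was at 0.23 (95% interval -0.43 to 0.89) and Ripk1 at -0.23 (-0.99 to 0.53), and Ripk3 had 1 read in all libraries. The metabolic and antimicrobial enzymes Acod1 and Nos2 were at -0.35 (-1.43 to 0.73) and 1.52 (-1.73 to 4.77). Nos2 was not read in WT IFNγ C, and without that library they were at -0.86 and -0.15.

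No member of the 27 genes of autophagy machinery passed the test in either genotype's response, and the list's median difference was -0.06. Atg101, a subunit of the kinase complex that starts autophagy, was at -1.24, the LC3 gene Map1lc3a at -1.01 and the LC3 protease Atg4b at -0.82. These were the members with an unadjusted p under 0.05 (negative in 2.89% of all genes), with adjusted p of 0.379, 0.659 and 0.69 (limma). The cargo receptor Sqstm1, which accumulates as protein when autophagy is blocked, was at -0.44 (95% interval -1.04 to 0.16). Of 34 lysosomal genes 27 had a negative difference, while 5490 of all 10981 genes had a positive one. The list's median of -0.22 stayed negative under all 25 alternatives, which share libraries and are not independent checks. For 27 of the 34 the 95% interval lay between -1 and 1, against 36.2% of all genes. The list's mean level in WT medium A was 9.90, against a median of 7.11 for tested genes. Whether level accounts for the share was not tested. Lipa, the acid lipase, was the 1 member with an unadjusted p under 0.05 (negative in 2.89% of all genes), at -0.64 ± 0.23 (SE, adjusted p = 0.59, limma).

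Cholesterol synthesis fell with IFNγ in 11 of 26 genes in WT cells and in 7 in KO cells, against 2.12% and 2.69% of all genes. Lss and Idi1, enzymes of sterol and isoprenoid synthesis, fell in WT cells by 1.17 (adjusted p = 0.0109) and 1.44 (adjusted p = 0.0333), with KO changes of -0.11 and -0.06 and differences of 1.05 ± 0.39 and 1.38 ± 0.57 (SE; adjusted p = 0.59 and 0.642). Acaca, which makes malonyl-CoA for fatty acids, fell in WT cells by 0.82 (adjusted p = 0.0487) and had a difference of 0.80. The WT calls of these enzymes were lost without single libraries, that of Lss without WT medium B or WT IFNγ A (up to 0.0977), that of Idi1 without any one WT medium library or WT IFNγ A or B (up to 0.13). That of Acaca was lost without any one of 9 of the 12 libraries, all but WT IFNγ C and KO medium B and C (up to 0.168). The list's median was 0.08, with 15 of 26 positive.

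**Figure D5:**
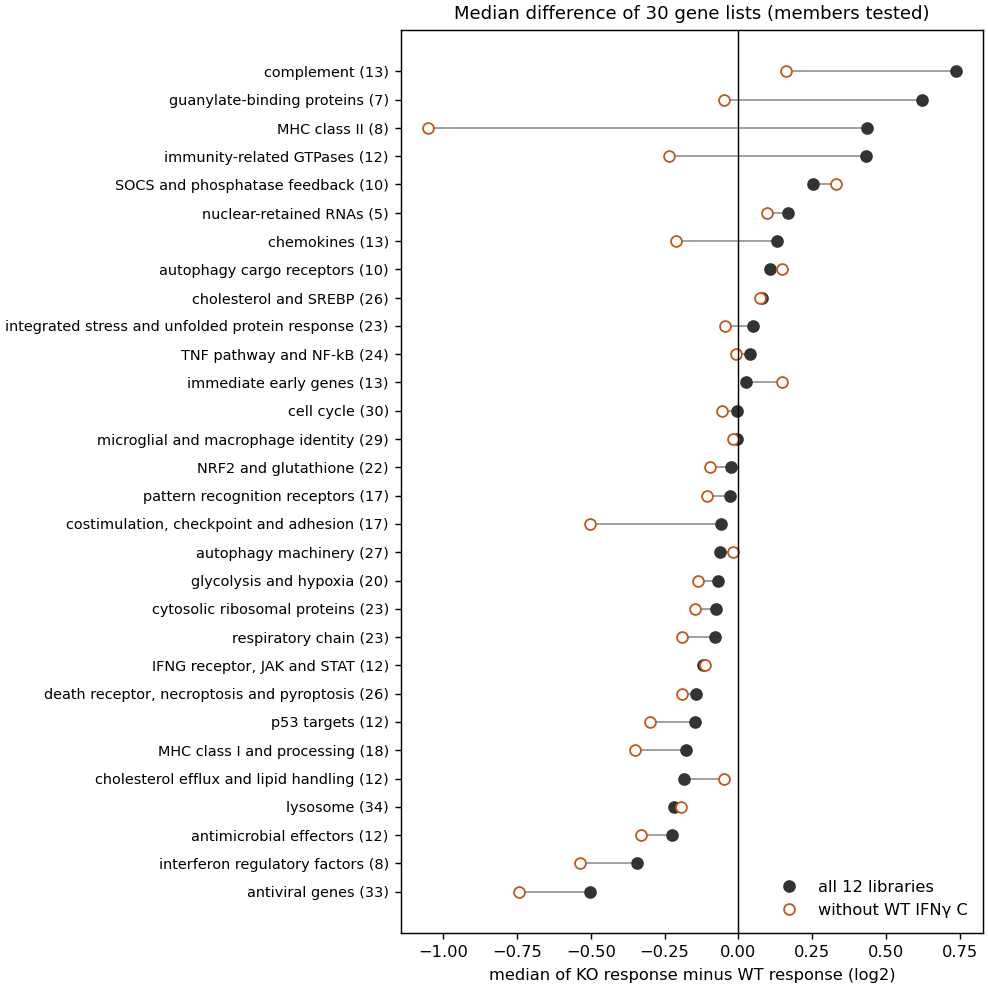
Median over each list's tested members (number in brackets) of the KO response minus the WT response (log2), with all 12 libraries (filled) and without WT IFNγ C (open). With all libraries the antiviral list lies lowest at -0.50; the complement, guanylate-binding, class II and immunity-related GTPase lists move down most when that library is left out.

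With all 12 libraries the complement list had the most positive median, 0.74 over 13 genes, of which 7 were positive. The median was 0.16 without WT IFNγ C, below the 0.33 of the feedback list, and -0.013 without KO IFNγ A. Its members with an unadjusted p under 0.05 were the 3 C1q genes (positive in 4.33% of all genes), and C3, the central component, was at -1.15 (95% interval -2.45 to 0.15). The 95% interval lay between -1 and 1 for 18 of 20 glycolysis and hypoxia genes (median -0.07), 20 of 23 respiratory chain genes (median -0.08) and 19 of 23 cytosolic ribosomal protein genes (median -0.08), against 36.2% of all genes. The mean levels of these lists in WT medium A were 9.17, 9.87 and 12.11, against a median of 7.11 for tested genes. Whether level accounts for these shares was not tested.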

How the data were processed

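The authors deposited 1 table of log2 values for 12 libraries, each the log2 of 1 plus a read count scaled by its library's size factor: on undoing the log and the scaling, 100% of values above 0 were whole numbers to within 0.01. The tools named per the submitters' processing notes are STAR, HTSeq 0.6.1, DESeq2 1.10.1 and FastQC 0.11.2, with GRCm38; their settings and the annotation release are not given in the sources used here. Per the series' own text, replicates were sequenced as 1 pool; the table keeps a column per library.

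Genes that reached a log2 level of 3 in 3 or more libraries were fitted with limma 3.58.1 (R 4.3.3), with 1 mean per group, a mean-variance trend and 8 residual degrees of freedom. Tests were two-sided, and p was adjusted by Benjamini and Hochberg's method over all 10981 genes, with a threshold of 0.05. Every adjusted p given comes from limma, "rose" and "fell" mean that it was under 0.05, SE is limma's, and intervals are 95%. The script was tested on simulated data. Floors of 3 reads over a group and counting intervals cover counting error only. The p-values measure the spread between independently made replicates of 1 line.

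Members and 30 gene lists were chosen with earlier results of these data known. The named genes are the 12 of each sign with the lowest unadjusted p and a mean of at least 5 in their highest group, since none was called; the 2 members of each list with the lowest p, of which some are left out here; and a fixed set around IFNγ, TNF and autophagy. C1qc, Isg20, Bst2, Isg15, Rsad2, Parp14, C3, Atg4b, Top2a and Acaca were named after their values were seen. Some genes are not reported here. A few genes have no symbol, or a number in its place (27). Positions and lengths are from GENCODE M21 and promoters from RefSeq, which gives none for C1qa in the table used.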

Additional observations from a re-analysis of the deposited data

Results flagged for a closer look

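For 10 of the genes described or listed above or in the chosen sets, every IFNγ library lay on one side of every medium library in WT cells and on the opposite side in KO cells; 47 of 10981 genes did so (0.428%). These 10 were named for a low unadjusted p of the same difference, which favours this pattern, so the pattern is no separate support. By limma's test of the difference none passed. The differences (KO response minus WT response, log2) were 1.82 for Hnrnph1 (adjusted p = 0.106), 1.14 for Cstf2 and 1.32 for 1110037F02Rik (adjusted p = 0.294 each). They were 1.099 for Zfp330, -1.67 for Snora73b and -1.24 for Atg101 (adjusted p = 0.379 each), and -1.12 for Mau2 (adjusted p = 0.401). Irf2bpl was at -0.89 (adjusted p = 0.439), Fam134b, a receptor for autophagy of the endoplasmic reticulum, at -0.80 (adjusted p = 0.54), and Lipa at -0.64 (adjusted p = 0.59). Of these, Hnrnph1 passed in each genotype's own response.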

How the results depend on the processing

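Limma called no difference between the responses under most alternatives (filters, pseudocount 8, centring, quantile normalisation, no trend, robust trend, voom, adjusted p under 0.10). It called 1 with a pseudocount of 0.5 (Myh10, adjusted p = 0.0212), 3 with library weights (Myh10, Mki67 and C1qb), 3 without both IFNγ libraries of letter C (Myh10, Mki67 and C1qb) and 2 without all 4 libraries of letter C (Myh10 and C1qb). With 1 library left out the count ran from 0 to 3: Mki67 without WT IFNγ C (0.031), C1qa without KO medium B (0.0351), Hnrnph1, Mki67 and AI506816 without KO IFNγ B (0.00428, 0.0303 and 0.0483), and Myh10 and C1qb without KO IFNγ C (0.00108 and 0.0238). The replicate block called 1 gene, Myh10 (adjusted p = 0.0325). The letters do not mark paired samples in the labels: of 18 same-letter pairs the deviations from the group mean correlated at -0.06 to 0.22, with 2 over 0.1, and 3 libraries were closest to their own letter in every group. Genes at an unadjusted p under 0.05 numbered 617 to 1166 (792 in the report). Counts of IFNγ-responsive genes ran from 424 without WT IFNγ A to 1517 with library weights in WT cells, and from 513 without KO medium A to 1176 at an adjusted p under 0.10 in KO cells. KO against WT counts ran from 24 to 103 in medium and from 17 to 115 with IFNγ. Of 111 named genes at most 6 changed the sign of their difference under any alternative, those without WT IFNγ C. For 36.2% of genes the interval lay between -1 and 1. Whether depth or the spread between replicates set its width was not tested.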

Other observations

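Immediate early genes held members of both signs that no account above covers. Egr2 read 0.81, 1.76 and 2.53 in WT medium, 3.62, 3.39 and 3.83 in WT IFNγ, 3.42, 2.83 and 3.08 in KO medium and 2.53, 1.91 and 3.13 in KO IFNγ, levels near the filter. Its difference was -2.50 ± 0.94 (SE; adjusted p = 0.611, limma). Zfp36, which speeds the decay of AU-rich mRNAs such as that of Tnf, fell in WT cells by 1.17 (adjusted p = 0.00299), with a KO change of -0.40 and a difference of 0.76 ± 0.33 (SE; adjusted p = 0.659). Klf4 was at -0.99 ± 0.41 (SE; adjusted p = 0.652). The list's median was 0.02 over 13 genes.

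Ctss, the protease that trims the invariant chain, differed in sign from Cd74. It rose in KO cells by 1.29 (adjusted p = 0.000407), its WT change was 0.57 (adjusted p = 0.125), and the difference was 0.72 ± 0.30 (SE; adjusted p = 0.642). Nfe2l2, the regulator of the antioxidant response, was at 0.73 ± 0.27 (SE; adjusted p = 0.592), with a list median of -0.02 over 22 genes. F13a1 had 273 reads in WT medium and 17 in WT IFNγ, and 271 and 2 in KO cells. In WT cells it fell by 3.94 and in KO cells it fell by 6.08, and the difference of -2.14 ± 1.08 (SE; adjusted p = 0.702) was -1.22 without WT IFNγ C.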
